A study of Mus musculus with 12 samples.

Results

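The genes of the Runx/Cbfb complex were examined in dendritic cells (DCs) from the mouse small intestine. They are Cbfb, which encodes the partner subunit Cbfβ, the Runx factors Runx1, Runx2 and Runx3, and the ETO-family co-repressors Cbfa2t2 and Cbfa2t3. The 6 genes were taken by name and matched to 6 of the 53801 gene identifiers that were counted, and all 6 were among the 20580 genes tested. Reads per gene came from DCs with the surface markers CD103+CD11b- or CD103-CD11b+, sorted from mice labelled wild type (WT) or Cbfb-cKO, with 3 samples in each of the 4 groups. All mice are labelled as of mixed background, and the labels give neither their age nor their sex. The Cbfb-cKO mice are CbfbF/F:CD11c-Cre by the methods of the study: Cre recombinase driven from a CD11c transgene removes a floxed part of Cbfb in cells that express CD11c. Deletion is not limited to DCs, since the study also saw the recombined allele in T helper cells of the gut. Whether the WT mice carried the transgene is not given in the labels. The study took as gut DCs the cells that were CD45+, CD64-, CD11c+ and MHC-II+, a gate that should leave out fibroblasts, endothelium and epithelium (CD45-), macrophages (CD64+) and most lymphocytes. Whether the cells for RNA were sorted through exactly this gate is not stated. CD103+CD11b+ DCs were not among these samples. The RNA comparison asked whether the DC subsets that remain in these mice differ in their transcripts from those of WT mice.

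Runx proteins bind DNA through the Runt domain, and Cbfβ, which does not bind DNA itself, holds that domain in the form that binds well. The dimers recruit co-activators at some genes and co-repressors, such as the Groucho/TLE proteins, at others. Runx1 is required for the origin of blood stem cells, Runx2 for bone, and Runx3 is known in CD8+ T cells, in innate lymphocytes and in DCs, where it acts downstream of TGFβ. Proteins of the ETO family do not bind DNA alone but bridge DNA-bound factors to NCoR, Sin3 and histone deacetylases. Runx1t1, the ETO gene that is not a member here, is the fusion partner of RUNX1 in a form of acute myeloid leukaemia. Cbfa2t3 is a co-repressor of blood progenitors and is active in DC development.

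The libraries held between 2161929 and 5863484 counts on genes, with Cbfb-cKO CD103-CD11b+ replicate 3 the shallowest library. Levels are given as CPM, counts scaled to the size of the library, after TMM scaling, a correction for differences in RNA composition between libraries. The summed CPM of 9 markers of CD103+CD11b- DCs, such as Xcr1 and Clec9a, was between 5207 and 8772 in the CD103+CD11b- samples and between 2086 and 3646 in the others. The sum of 8 markers of CD11b+ DCs, such as Sirpa and Irf4, was between 1104 and 1722 in the CD103-CD11b+ samples, between 406 and 672 in WT CD103+CD11b- samples and between 91.1 and 156 in Cbfb-cKO CD103+CD11b- samples. Genes of stroma and endothelium summed to between 119 and 2156 CPM, unevenly within every group. In such bulk samples fewer cells of a type and less RNA per cell cannot be told apart.

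Runx factors recognise the hexamers TGTGGT and TGCGGT, which were searched on both strands of RefSeq windows (GRCm38.p6) from 250 bases before to 50 after each annotated start. A pair of closely spaced copies, read here as ACCACA on the strand of the gene, stood at the upstream (distal) starts of the 3 Runx genes. These sites are shown because they are what the start regions of the Runx genes had in common beyond their names. The stretch they share was picked from windows of these same genes, so its rarity among all windows, given below, does not test enrichment. Capitals mark the hexamers found, on either strand.
Runx1, chr16:92826025-92826054, minus strand: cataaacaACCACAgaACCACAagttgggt
Runx2, chr17:44814583-44814612, minus strand: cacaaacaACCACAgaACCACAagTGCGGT
Runx3, chr4:135120503-135120532, plus strand: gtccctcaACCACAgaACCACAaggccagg
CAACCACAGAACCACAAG, the longest stretch that windows of all 3 genes had in common, occurred in 4 of 32851 windows (0.0122%), the fourth being that of Gm16225. Counted from 1 at the start, it took positions 27 to 44 in Runx1 and 22 to 39 in Runx2, within annotated exon sequence. In Runx3 it lay before the start, at positions -136 to -119, outside annotated exons. The Runx2 site continues directly into TGCGGT, and its window held 3 TGTGGT and 1 TGCGGT. At least 1 TGTGGT was present in 16.8% of all windows, at least 2 in 1.81% and at least 3 in 0.183%. The proximal starts of Runx1 and Runx3 and the windows of Cbfb and Cbfa2t2 held 0 of either hexamer, and of the windows of Cbfa2t3 only the upstream one held a TGCGGT. A match describes the letters only, and occupancy was not measured.

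Per kb of exon, which allows genes to be compared, 5 of the 6 genes were among the more abundant transcripts of these DCs. Over the 12 samples the mean level was 73.2 CPM per kb for Runx1, 71.0 for Cbfa2t3, 62.9 for Runx3, 61.1 for Cbfb and 23.8 for Runx2, above 98.4%, 98.3%, 97.9%, 97.8% and 87.9% of 20559 genes with a length. Cbfa2t2 was lower, at 6.35 CPM per kb (above 58.2% of genes). Runx1t1 was near the limit of detection in most samples, at 0 to 1.78 CPM in both CD103+CD11b- groups.

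The order of the levels differed between the groups. In WT CD103+CD11b- DCs the mean CPM per kb ran from Cbfa2t3 (72.8) over Cbfb (61.6), Runx1 (55.0), Runx3 (49.2) and Runx2 (31.3) to Cbfa2t2 (6.60), and neither Cbfa2t3 and Cbfb nor Runx1 and Runx3 were separated beyond their replicates. In WT CD103-CD11b+ DCs Cbfa2t3 stood first (80.4), above all samples of Runx1 (62.2), while Runx1, Runx3 (58.2) and Cbfb (53.9) overlapped and Runx2 (16.3) lay below them. In Cbfb-cKO CD103+CD11b- DCs Runx1 stood first (82.9), above all samples of Cbfa2t3 (71.8), which overlapped with Cbfb (69.5). Runx3 (44.9) and Runx2 (13.5) followed there without overlap. In Cbfb-cKO CD103-CD11b+ DCs Runx3 (99.5), Runx1 (92.7), Cbfb (59.6) and Cbfa2t3 (59.0) each overlapped with the next, and Runx2 (34.0) lay below. The order rests on the exon length used: with the longest transcript (5861 bp for Runx1) in place of all annotated exons (12025 bp), Runx1 stood first in all 4 groups.

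**Figure D1:**
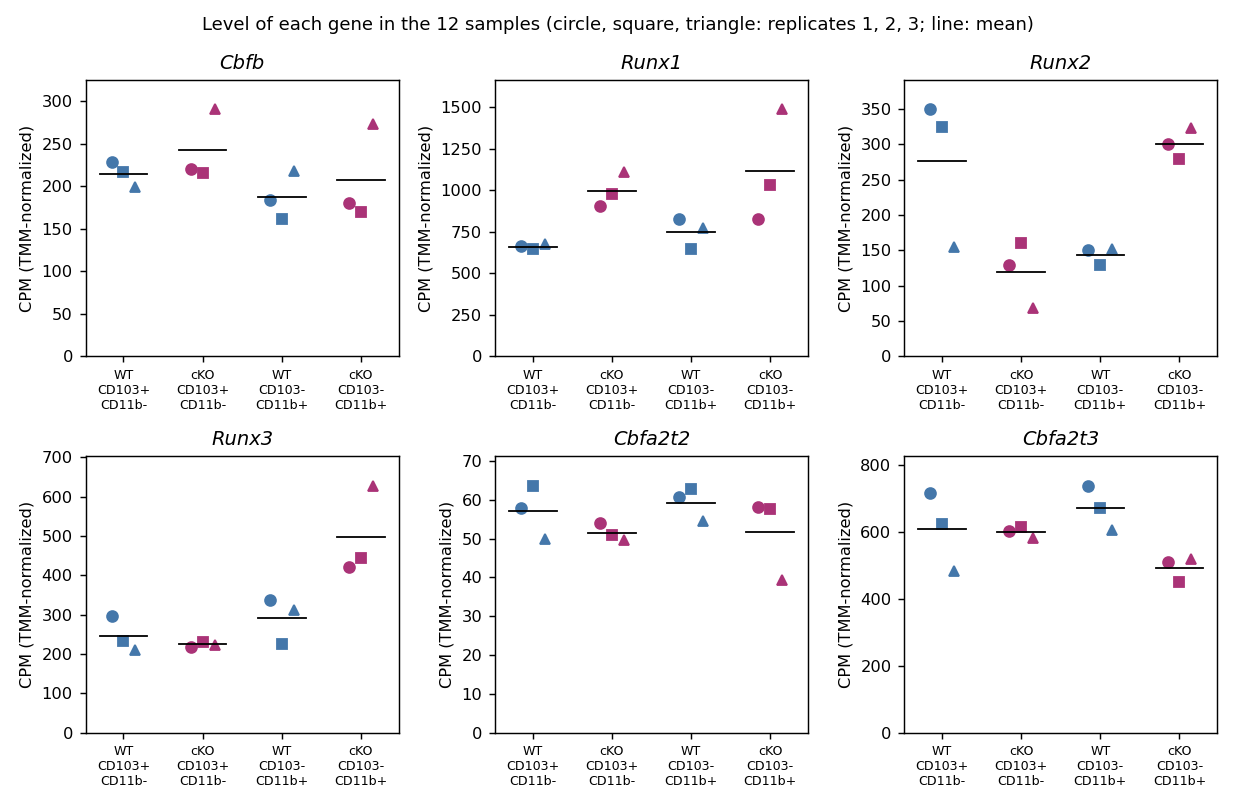
TMM-normalized CPM of Cbfb, Runx1, Runx2, Runx3, Cbfa2t2 and Cbfa2t3 in each of the 12 samples, by genotype and DC subset. Each symbol is a sample (circle, square and triangle for replicates 1, 2 and 3) and each line a group mean, with Runx2 at 279 to 323 CPM in Cbfb-cKO CD103-CD11b+ samples and 68.0 to 160.4 CPM in Cbfb-cKO CD103+CD11b- samples.

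A gene was called changed at a Benjamini-Hochberg adjusted p under 0.05 over all tested genes, from edgeR's quasi-likelihood test, and a fold change over 1.3. Between Cbfb-cKO and WT CD103-CD11b+ DCs 0 of the 6 genes were called, against 1.61% of all tested genes, while 4 had an unadjusted edgeR p under 0.05, as had 17.4% of tested genes. DESeq2 and edgeR's likelihood ratio test each called 2 there (Runx2 and Runx3), and 5.52% and 5.12% of tested genes. In CD103+CD11b- DCs 0 of 6 were called, against 1.02% of tested genes, with 2 at an unadjusted edgeR p under 0.05, against 10.5%. DESeq2 and the likelihood ratio test each called 1 of 6 (Runx2), and 3.18% and 2.91% of tested genes. The difference between both genotype effects was called for 0 of 6 in edgeR, against 0.651% of tested genes, with 2 at an unadjusted p under 0.05, against 11.1%, and Runx2 was called by DESeq2 and by the likelihood ratio test, which called 2.44% and 2.01% of tested genes. Between the subsets of WT mice 0 of 6 were called in edgeR, against 18.8% of tested genes, with 1 at an unadjusted p under 0.05, against 34.3%, and Runx2 was called by DESeq2 and by the likelihood ratio test, which called 21.8% and 24.0% of tested genes. Between the subsets of Cbfb-cKO mice 2 of 6, Runx2 and Runx3, were called, both higher in CD103-CD11b+ DCs, against 16.1% of tested genes called in either direction. These comparisons share samples: each WT and each Cbfb-cKO group enters a genotype and a subset comparison.

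All 3 Cbfb-cKO samples lay on 1 side of all 3 WT samples for 3 of 6 genes in CD103-CD11b+ DCs (Runx2 and Runx3 above, Cbfa2t3 below), where 20.1% of tested genes were so separated. In CD103+CD11b- DCs this held for 1 of 6 (Runx1, above), against 18.1% of tested genes. Between subsets it held for 1 of 6 in WT mice (Runx2, lower in CD103-CD11b+), against 38.1%, and for 3 of 6 in Cbfb-cKO mice (Runx2 and Runx3 higher, Cbfa2t3 lower in CD103-CD11b+), against 34.0%.

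Cbfb (ENSMUSG00000031885, chromosome 8, 105170674 to 105217989, plus strand of GRCm38) encodes the subunit that the cross targets. Cbfb stood in CD103+CD11b- DCs at 228, 216 and 199 CPM in WT samples and at 221, 215 and 290.2 CPM in Cbfb-cKO samples. The CD103-CD11b+ levels of Cbfb were 184, 161 and 217 CPM in WT samples and 179.6, 169.6 and 273 CPM in Cbfb-cKO samples. The genotypes overlapped in both subsets, and Cbfb-cKO replicate 3 was the highest sample of both. The log2 difference with genotype was 0.17 ± 0.19 (SE, n = 3 per group) for the CD103+CD11b- subset, with a 95% interval from -0.25 to 0.59, and 0.14 ± 0.19 in CD103-CD11b+ DCs, with an interval from -0.28 to 0.56 (adjusted p = 0.876 and 0.744, edgeR). Without Cbfb-cKO CD103-CD11b+ replicate 3 the latter value turned to -0.10. Between subsets Cbfb had log2 values of -0.19 ± 0.19 in WT and -0.23 ± 0.19 in Cbfb-cKO mice, neither called.

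The gene-level count of Cbfb does not check the genotype labels. The primers that the study used for genotyping are named for exon 5. In the annotated protein-coding transcripts with 6 exons, exon 5 has 96 or 127 bp (chromosome 8, from 105202452), which is 2.76% or 3.65% of the 3480 bp of Cbfb exon, whereas the last exon alone covers 59.9%. Counts over the whole gene therefore cannot show whether 1 such exon was lost, and reads per exon were not analysed here.

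Runx1 (ENSMUSG00000022952, chromosome 16, 92601466 to 92826149, minus strand) was the Runx gene with the most reads in every sample. Runx1 stood in CD103+CD11b- DCs at 662, 645 and 675 CPM in WT samples and at 906, 976 and 1109 CPM in Cbfb-cKO samples. All 3 Cbfb-cKO samples were above all WT samples, with means of 997 ± 103 and 661 ± 14.9 CPM (SD, n = 3 each). The CD103-CD11b+ levels of Runx1 were 829, 644 and 770 CPM in WT samples and 828, 1029 and 1487 CPM in Cbfb-cKO samples, and the lowest Cbfb-cKO sample lay just under the highest WT sample. The log2 difference was 0.59 ± 0.19 (SE) for the CD103+CD11b- subset and 0.57 ± 0.19 for the CD103-CD11b+ subset, so neither passed the threshold (adjusted p = 0.220 and 0.151, edgeR). The values in both subsets differed by -0.02, with an interval from -0.61 to 0.57. Without Cbfb-cKO CD103-CD11b+ replicate 3 the value in CD103-CD11b+ DCs was 0.31. Between subsets Runx1 had log2 values of 0.18 ± 0.19 in WT and 0.16 ± 0.19 in Cbfb-cKO mice, neither called.

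Runx2 (ENSMUSG00000039153, chromosome 17, 44495987 to 44814797, minus strand) had genotype differences of opposite sign in the subsets. Runx2 stood in CD103+CD11b- DCs at 349, 324 and 155 CPM in WT samples and at 129, 160.4 and 68.0 CPM in Cbfb-cKO samples. The CD103-CD11b+ levels of Runx2 were 151, 129 and 152 CPM in WT samples and 300.2, 279 and 323 CPM in Cbfb-cKO samples. WT replicate 3 was low in CD103+CD11b- DCs and overlapped with Cbfb-cKO replicate 2, whereas in CD103-CD11b+ DCs the genotypes were apart by more than the range within either.

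The log2 difference of Runx2 with genotype was -1.21 ± 0.32 in CD103+CD11b- DCs (adjusted p = 0.125, edgeR) and 1.06 ± 0.32 in CD103-CD11b+ DCs (adjusted p = 0.121, edgeR). The contrast of these values was 2.27 ± 0.45, with an interval from 1.28 to 3.26 and an adjusted p of 0.0541 (edgeR), just outside the threshold. Between subsets the value was -0.94 ± 0.32 in WT mice (adjusted p = 0.0608, edgeR). In Cbfb-cKO mice it was 1.33 ± 0.32 (adjusted p = 0.0164, edgeR), so there Runx2 was higher in CD103-CD11b+ DCs by a called amount. Without WT CD103+CD11b- replicate 3 Runx2 was also called in 3 further comparisons: lower in Cbfb-cKO than in WT CD103+CD11b- DCs (-1.50, adjusted p = 0.0258, edgeR), in the contrast of both genotype effects (2.58, adjusted p = 0.0133, edgeR) and lower in CD103-CD11b+ than in CD103+CD11b- DCs of WT mice (-1.28, adjusted p = 0.00931, edgeR). Without Cbfb-cKO CD103+CD11b- replicate 3 only the WT subset comparison of Runx2 was added (adjusted p = 0.0323, edgeR).

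Runx3 (ENSMUSG00000070691, chromosome 4, 135120652 to 135177990, plus strand) had its highest values in Cbfb-cKO CD103-CD11b+ DCs. In those samples it stood at 420.5, 444 and 628 CPM, against 337, 226 and 312 CPM in WT samples of that subset. Runx3 stood in CD103+CD11b- DCs at 296, 232 and 210.0 CPM in WT samples and at 218, 232 and 224 CPM in Cbfb-cKO samples. The lowest Cbfb-cKO CD103-CD11b+ sample was above all 9 samples of the other groups, which overlapped among themselves.

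The log2 difference of Runx3 with genotype was 0.77 ± 0.19 in CD103-CD11b+ DCs, with an interval from 0.35 to 1.19 and an adjusted p of 0.0721 (edgeR), and -0.13 ± 0.19 in CD103+CD11b- DCs (adjusted p = 0.925, edgeR). The contrast of these values was 0.90 ± 0.27 and was not called (adjusted p = 0.221, edgeR). Between subsets Runx3 was higher in CD103-CD11b+ DCs of Cbfb-cKO mice by 1.15 ± 0.19 on the log2 scale (adjusted p = 0.00230, edgeR), with 3 of 3 samples above. In WT mice the value was 0.25 ± 0.19 (adjusted p = 0.403, edgeR).

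Cbfa2t3 (ENSMUSG00000006362, chromosome 8, 122625141 to 122699109, minus strand), also known as ETO2 or MTG16, had its lowest mean in the group where that of Runx3 was highest. The CD103-CD11b+ levels of Cbfa2t3 were 739, 672 and 608 CPM in WT samples and 510.1, 451 and 519.6 CPM in Cbfb-cKO samples, without overlap. Cbfa2t3 stood in CD103+CD11b- DCs at 718, 626 and 485 CPM in WT samples and at 604, 616 and 584 CPM in Cbfb-cKO samples, all within the WT range. The log2 difference was -0.45 ± 0.14 for the CD103-CD11b+ subset, with an interval from -0.76 to -0.14, and -0.02 ± 0.14 in CD103+CD11b- DCs (adjusted p = 0.137 and 1, edgeR). The difference of -0.43 ± 0.20 between them had an adjusted p of 0.464 (edgeR). Between subsets Cbfa2t3 had log2 values of 0.14 ± 0.14 in WT and -0.28 ± 0.14 in Cbfb-cKO mice, neither called.

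Cbfa2t2 (ENSMUSG00000038533, chromosome 2, 154436481 to 154539356, plus strand), also known as MTGR1, was the lowest of the 6 genes in every group and varied least between the group means. It stood at 57.8, 63.6 and 49.96 CPM in WT and at 53.9, 51.0 and 49.7 CPM in Cbfb-cKO CD103+CD11b- samples. The CD103-CD11b+ levels of Cbfa2t2 were 60.7, 62.6 and 54.4 CPM in WT samples and 58.1, 57.6 and 39.3 CPM in Cbfb-cKO samples. The genotypes overlapped in both subsets, and the lowest value, again in Cbfb-cKO CD103-CD11b+ replicate 3, rested on 77 counts. The log2 difference was -0.15 ± 0.16 for the CD103+CD11b- subset, with an interval from -0.50 to 0.20, and -0.19 ± 0.16 in CD103-CD11b+ DCs, with an interval from -0.54 to 0.16 (adjusted p = 0.872 and 0.571, edgeR). Between subsets it had log2 values of 0.05 in WT and 0.01 in Cbfb-cKO mice.

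Runx1t1 (ENSMUSG00000006586), the remaining ETO gene, was called in none of the 5 comparisons by edgeR (the WT subsets had the lowest adjusted p, 0.0884, at a log2 value of 3.54, where DESeq2 called it). It stood at 0.783, 11.7 and 16.6 CPM in WT CD103-CD11b+ samples and at 2.69, 9.28 and 0.510 CPM in Cbfb-cKO CD103-CD11b+ samples. Col3a1, a collagen gene of fibroblasts, was 156, 392 and 414 CPM in the same WT samples and 184, 474 and 12.2 CPM in the same Cbfb-cKO samples. Of these 6 samples the 3 with the least Col3a1 also had the least Runx1t1, and the part of stromal RNA, which the CD45+ gate should leave out, in the Runx1t1 counts was not tested.

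**Figure D2:**
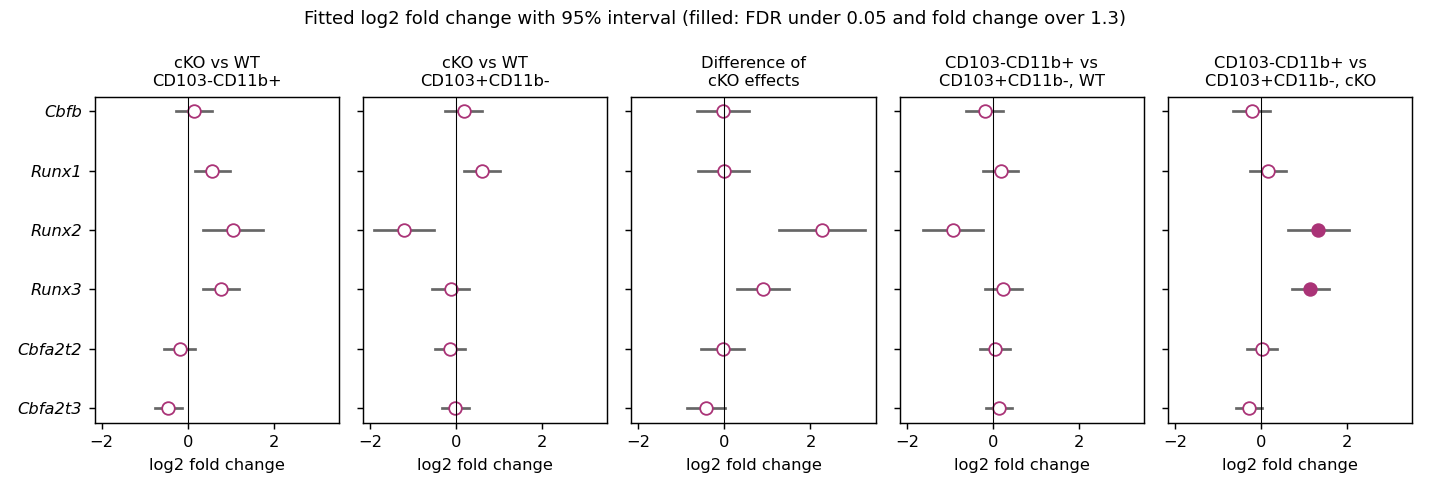
Log2 fold change (horizontal axis) of the 6 genes in 5 comparisons, from edgeR's quasi-likelihood fit of all 12 samples. Circles are estimates, lines 95% intervals, and filled circles genes called changed, which are Runx2 (1.33) and Runx3 (1.15) between the subsets of Cbfb-cKO mice.

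The make-up of the Runx pool, taken as the sum of Runx1, Runx2 and Runx3 in CPM per kb, also differed between groups. The sum was 116 to 154 CPM per kb in WT CD103+CD11b-, 113 to 153 in WT CD103-CD11b+ and 134 to 146 in Cbfb-cKO CD103+CD11b- samples. In Cbfb-cKO CD103-CD11b+ samples it was 187, 206 and 286 CPM per kb, above all 9 others. Runx1 made up 55.7% to 63.7% of the pool in Cbfb-cKO CD103+CD11b- samples and 35.8% to 48.5% in all other samples. Runx2 made up 5.32% to 12.5% there and 15.2% to 26.8% in the WT samples of that subset. The share of Runx3 lay between 30.9% and 45.0% throughout.

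Cbfb was also set against the Runx sum. The ratio of Cbfb to the summed Runx level per kb was 0.276, 0.237 and 0.274 in Cbfb-cKO CD103-CD11b+ samples, against 0.345, 0.409 and 0.435 in WT samples of the same subset, without overlap. In CD103+CD11b- DCs it was 0.426, 0.455 and 0.494 in WT samples and 0.475, 0.424 and 0.576 in Cbfb-cKO samples, which overlapped. These ratios are transcript levels over the whole gene and, as above, do not show which of the Cbfb transcripts kept exon 5. Shares and ratios are descriptions and were not tested. All of them rest on the exon length used. With the longest transcript as the length of each gene, chosen after the values were seen, the Runx sum was 188 to 257 CPM per kb in the other 9 samples and 296 to 465 in Cbfb-cKO CD103-CD11b+ samples. Runx1 then made up 66.4% to 73.5% of the pool in Cbfb-cKO CD103+CD11b- samples and 46.5% to 59.6% in all others. The ratio of Cbfb to the sum was then 0.176 to 0.210 in Cbfb-cKO and 0.253 to 0.320 in WT CD103-CD11b+ samples. The levels moved by over 1.5 times in some groups, while these groups were apart with either length.

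**Figure D3:**
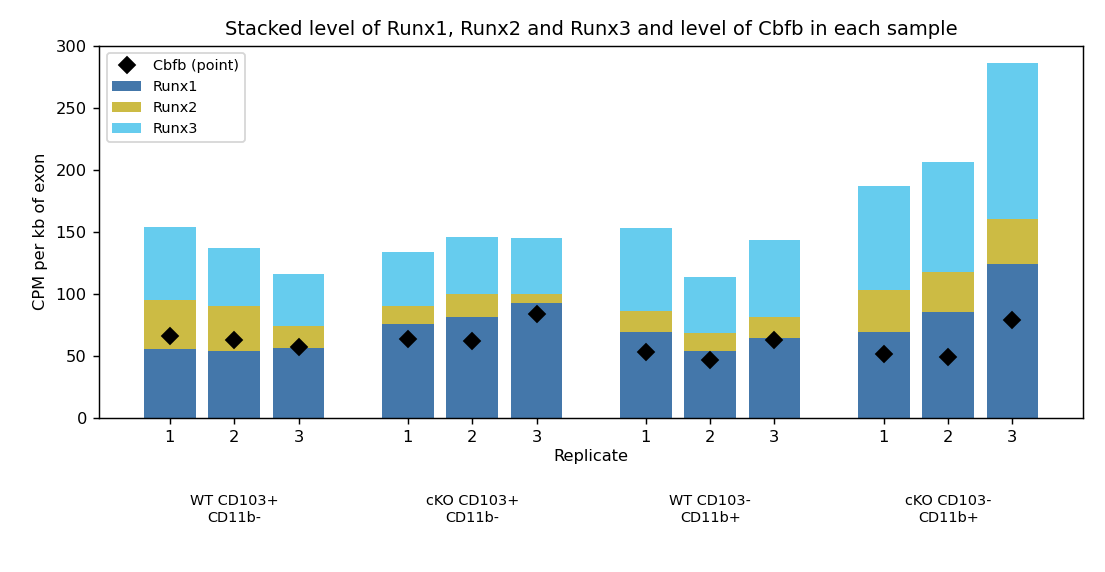
Summed level of Runx1, Runx2 and Runx3 (stacked bars) and level of Cbfb (diamonds), in CPM per kb of exon, in each of the 12 samples by group and replicate. The bars reach 187 to 286 in Cbfb-cKO CD103-CD11b+ samples and 113 to 154 in the others, while Cbfb stays between 46.3 and 83.4.

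Reads were counted without regard to strand, so reads from a gene and from one that overlaps it on the other strand cannot be told apart. Overlapping exons were few: Runx1 shares 106 bp (0.882% of its exon) with Gm26626, Cbfa2t3 295 bp (3.52%) with Gm10612 and Runx2 519 bp (5.87%) with Runx2os1, which had at most 13 counts in any sample. Cbfb, Runx3 and Cbfa2t2 shared no exon with an annotated gene. Gm16224 and Runx2os2 lie within Runx3 and Runx2 without a shared exon, so reads from unspliced RNA of these members would be counted for them. The part of such reads was not tested. The genes named next were chosen after their values were seen.

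Gm16224 (chromosome 4, 135143421 to 135144285, minus strand) lies within Runx3 without sharing an exon and is annotated as antisense. It stood at 16.6, 8.995 and 11.6 CPM in WT and at 32.1, 36.4 and 36.7 CPM in Cbfb-cKO CD103-CD11b+ samples. In CD103+CD11b- DCs it stood at 14.4, 7.32 and 7.11 CPM in WT and at 5.55, 4.88 and 3.91 CPM in Cbfb-cKO samples. The genotypes did not overlap in either subset, with Cbfb-cKO above WT in CD103-CD11b+ DCs and below in CD103+CD11b- DCs. The log2 difference was 1.48 ± 0.31 in CD103-CD11b+ DCs (adjusted p = 0.0427, edgeR, called) and -0.97 ± 0.33 in CD103+CD11b- DCs (adjusted p = 0.260, edgeR). The called difference of 2.45 ± 0.45 had an adjusted p of 0.0422 (edgeR). Both of these calls were close to the threshold: the first was kept when WT CD103+CD11b- replicate 1 or 3, WT CD103-CD11b+ replicate 1 or Cbfb-cKO CD103+CD11b- replicate 3 was left out and lost in the 8 other cases, and the second was lost in 10 of 12. The adjusted p then ranged from 0.0269 to 0.121 and from 0.0282 to 0.108 (edgeR). Between the subsets of Cbfb-cKO mice Gm16224 was higher in CD103-CD11b+ DCs by 2.85 ± 0.33 (adjusted p = 0.000215, edgeR), with 3 of 3 samples above, and this call was kept in 12 of 12 cases with 1 sample left out. In WT mice the subset value was 0.40 ± 0.31 (adjusted p = 0.402, edgeR).

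Runx2os2 (chromosome 17, 44710222 to 44713925, plus strand) lies within Runx2 and shares no exon with it. It stood at 34.5, 30.7 and 8.89 CPM in WT and at 10.4, 13.2 and 4.30 CPM in Cbfb-cKO CD103+CD11b- samples. In CD103-CD11b+ DCs it stood at 9.79, 7.66 and 4.65 CPM in WT and at 25.4, 24.7 and 21.4 CPM in Cbfb-cKO samples. WT CD103+CD11b- replicate 3 was low for Runx2os2 as it was for Runx2, and the Cbfb-cKO CD103-CD11b+ samples were again above all WT samples of that subset. The difference between the genotype effects was 3.06 ± 0.72 (adjusted p = 0.108, edgeR). Between subsets Runx2os2 was lower in CD103-CD11b+ DCs of WT mice by a called amount (-1.72 ± 0.51, adjusted p = 0.0385, edgeR), a call lost in 5 of 12 cases with 1 sample left out (adjusted p up to 0.132, edgeR), and in Cbfb-cKO mice the value was 1.34 ± 0.50 (adjusted p = 0.0941, edgeR). With the replicate number as a block the latter was called (1.40 ± 0.31, adjusted p = 0.0159, edgeR). Gm26626 at Runx1 stood at 10.3 to 17.03 CPM in the 6 WT samples and at 17.6 to 32.6 CPM in the 6 Cbfb-cKO samples, with log2 differences of 0.73 ± 0.26 and 0.87 ± 0.26 (adjusted p = 0.309 and 0.122, edgeR), neither called.

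**Figure D4:**
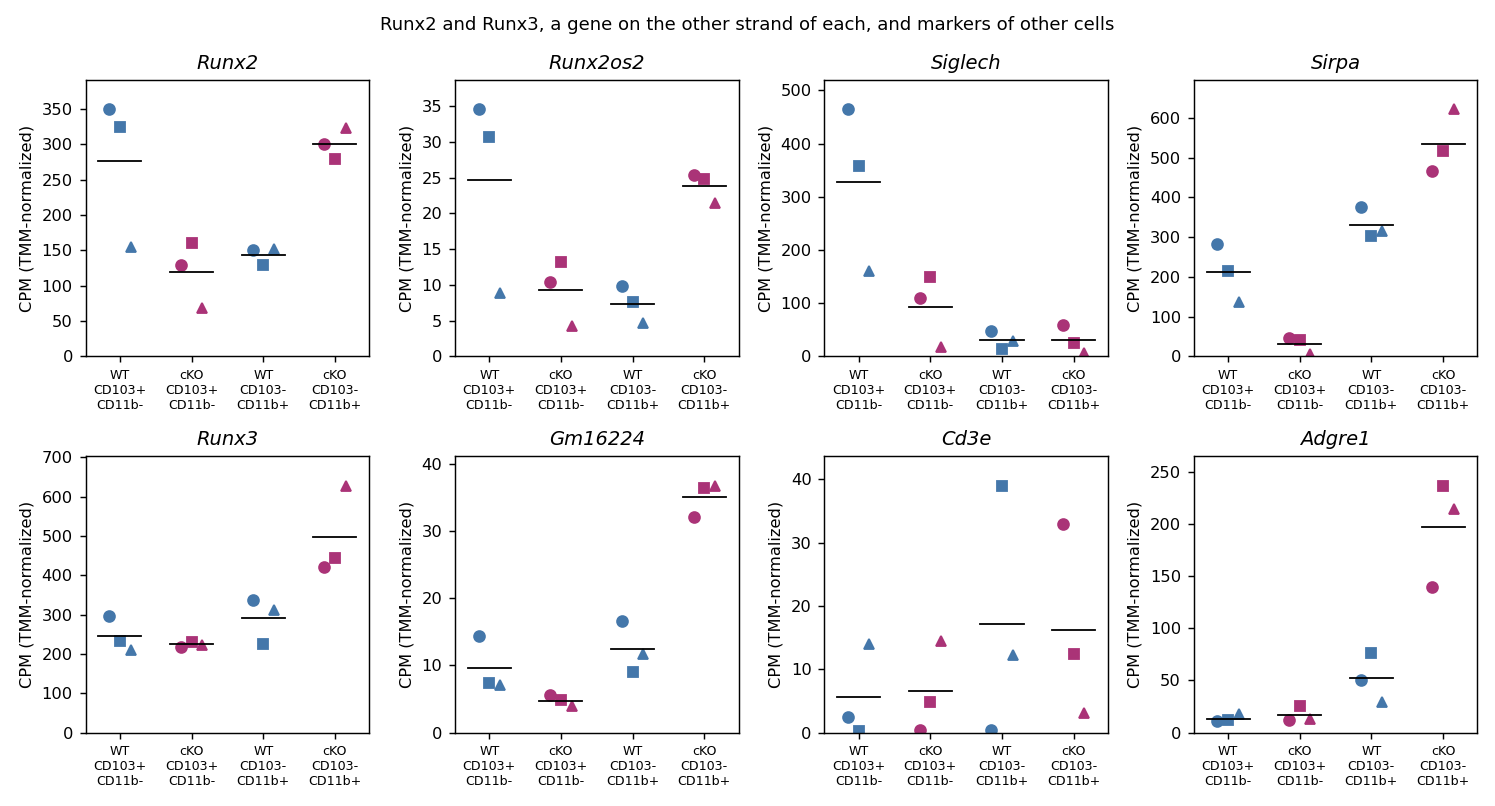
TMM-normalized CPM of Runx2 with Runx2os2, Runx3 with Gm16224, and the markers Siglech, Sirpa, Cd3e and Adgre1 in each sample, by genotype and subset (symbols and lines as in the plot of the 6 genes by sample). Runx2 and Siglech are both lowest in replicate 3 of each CD103+CD11b- group, while Sirpa falls from 137 to 283 CPM in WT to 5.08 to 47.3 CPM in Cbfb-cKO samples of that subset.

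Markers of other cells differed beside the Runx2 values in CD103+CD11b- DCs. Siglech, a surface lectin of plasmacytoid DCs, a cell type that also expresses Runx2, stood at 464, 358 and 159.6 CPM in WT and at 110.5, 149.9 and 18.0 CPM in Cbfb-cKO CD103+CD11b- samples, the same sample order as Runx2 within each group. The 6 plasmacytoid DC markers summed to 870.2 to 2018 CPM in WT and 379.7 to 759.6 CPM in Cbfb-cKO samples, with 6 of 6 values below 0 (median log2 difference -1.21), 0 of 6 called by edgeR, 5 at an unadjusted p under 0.05, and none listed at 0 in all samples of a group. Of the 8 CD11b+ DC markers 4 were called lower in Cbfb-cKO CD103+CD11b- DCs: Sirpa (-2.74, adjusted p = 0.0420, edgeR), Irf4 (-1.78), Cd209a (-2.80) and Epcam (-1.88). Markers of innate lymphocytes summed to 73.2 to 193 CPM in WT and 15.3 to 54.2 CPM in Cbfb-cKO samples, without overlap. Only 4 of 7 of their values were below 0, and 0 were called. Stroma and endothelium markers had 7 of 7 values below 0 and 0 called (median -0.52). Macrophage and epithelial markers had 6 of 8 and 6 of 7 values above 0, with 0 called. The sort for CD11b- cells should leave out CD11b+ DCs. The part of any of these cell types in the Runx2 values was not tested.

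In CD103-CD11b+ DCs 3 of the 6 plasmacytoid markers had values above 0 and 3 below. They summed to 698.7 to 997 CPM in WT and to 434 to 801 CPM in Cbfb-cKO samples, and Siglech stood at 14.3 to 47.2 CPM and at 6.63 to 59.0 CPM. T cells also express Runx1 and Runx3, and their markers summed to 4.502, 108 and 33.4 CPM in WT and 110.5, 44.7 and 12.7 CPM in Cbfb-cKO samples, with 6 of 7 values above 0 (median 0.39). Cbfb-cKO replicate 3, the shallowest library, had the lowest T cell sum of its group and the highest Runx3, Runx1 and Cbfb (273 CPM). It also had the highest Cd74, a gene of all DCs, at 1185 CPM against 549 and 591 CPM. Markers of innate lymphocytes summed to 33.7 to 107 CPM in WT and 38.8 to 63.8 CPM in Cbfb-cKO samples. Macrophage markers summed to 156 to 408 CPM in WT and 305 to 511 CPM in Cbfb-cKO samples, although only 3 of 8 values were above 0 and 5 below (median -0.13). The one called, Adgre1, which encodes F4/80, rose (1.93, adjusted p = 0.0336, edgeR). B cell markers summed to 280.1 to 444 CPM in WT and 439 to 872 CPM in Cbfb-cKO samples, with 6 of 7 values above 0 (median 1.52), and Ms4a1, which encodes CD20, rose (3.72, adjusted p = 0.00455, edgeR). Epithelial markers summed to 166 to 278 CPM in WT and to 38.5 to 63.7 CPM in Cbfb-cKO samples, without overlap. Of their values 6 of 7 were below 0 (median -1.75), with 0 called by edgeR. Most of each sum was Cdh1, at 224, 116 and 124 CPM in WT and 33.0, 22.6 and 46.9 CPM in Cbfb-cKO samples. Cdh1 also stood at 217 and 166 CPM in WT CD103+CD11b- replicates 1 and 2, where Krt8 stood at 1.37 and 1.60 CPM. Krt8 and Lgals4 were lower in all 3 Cbfb-cKO than in all WT CD103-CD11b+ samples. The source of the Cdh1 reads was not tested. The DC gate of the study should leave out macrophages, epithelium and most lymphocytes, and the part of RNA from such cells in the Runx values was not tested.

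Between the subsets of Cbfb-cKO mice, where Runx2 and Runx3 were called higher in CD103-CD11b+ DCs, markers of several other cells were higher there too. Macrophage markers had 8 of 8 values above 0 and 5 called (median 3.70), with sums of 13.5 to 65.4 CPM in CD103+CD11b- and 305 to 511 CPM in CD103-CD11b+ samples. B cell markers had 7 of 7 values above 0 and 3 called (median 2.85), with sums of 272 to 307 CPM and 439 to 872 CPM. T cell markers had 7 of 7 values above 0 and 0 called by edgeR (median 1.38), with sums of 5.55 to 41.1 CPM and 12.7 to 110.5 CPM, which overlapped. Stroma and endothelium markers had 7 of 7 values above 0 and 2 called (median 2.29). Their sums were 119 to 404 CPM and 356 to 1943 CPM, which overlapped. Markers of innate lymphocytes had 6 of 7 values above 0 and 1 called (median 1.87). These summed to 15.3 to 54.2 CPM and 38.8 to 63.8 CPM, which overlapped. Epithelial markers had 6 of 7 values below 0 and 0 called (median -0.71). In WT mice macrophage markers were higher in CD103-CD11b+ DCs as well, with 8 of 8 values above 0 and 7 called (median 4.48), while the subset value of Runx3 was not called. Stroma and endothelium markers of WT mice also had 7 of 7 values above 0, with 2 called (median 2.26). Plasmacytoid DC markers had 5 of 6 values below 0 and 3 called lower in CD103-CD11b+ DCs of WT mice (median -1.78), where Runx2 had a value of -0.94. Siglech fell there by 3.42 on the log2 scale (adjusted p = 0.0187, edgeR). In Cbfb-cKO mice 3 plasmacytoid markers had values above 0 and 3 below, with 1 called lower. The part of these cells in the subset values was not tested.

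The other genes of the pathway were taken as 59 genes in 7 lists, of which 55 were tested. With genotype, 0 were called higher and 1 lower in CD103-CD11b+ DCs, and 0 in either direction for CD103+CD11b- DCs or for the difference of both effects (edgeR). At an unadjusted p under 0.05 were 11, 8 and 10 of the 55 in these 3 comparisons, or 20.0%, 14.5% and 18.2%, against 17.4%, 10.5% and 11.1% of all tested genes. DESeq2 called 6, 3 and 3 (10.9%, 5.45% and 5.45%, against 5.52%, 3.18% and 2.44% of all), and the likelihood ratio test 5, 3 and 2 (9.09%, 5.45% and 3.64%, against 5.12%, 2.91% and 2.01%). The median log2 difference of the 55 was -0.12 in CD103-CD11b+ and 0.01 in CD103+CD11b- DCs, against -0.06 and -0.02 over all tested genes. The gene called was Itgae, an integrin gene with a Runx-dependent silent or active state in lymphocytes, which fell by 1.89 on the log2 scale (adjusted p = 0.0301, edgeR), from 281, 138 and 150.1 CPM to 81.5, 39.3 and 30.6 CPM. Itgae encodes CD103, on which the cells were sorted, so its level within these gates is not free of the sort. The call was lost when any of 6 of the 12 samples was left out, which were WT CD103+CD11b- replicate 2, WT CD103-CD11b+ replicates 1 and 3, Cbfb-cKO CD103+CD11b- replicate 1 and Cbfb-cKO CD103-CD11b+ replicates 2 and 3.

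Of the 5 Groucho/TLE genes, Tle1, chosen after its values were seen, had a value of -0.84 ± 0.19 in CD103-CD11b+ DCs (adjusted p = 0.0564, edgeR). Carm1, an arginine methyltransferase, had a value of -0.51 ± 0.13 in CD103-CD11b+ DCs (adjusted p = 0.0683, edgeR). Csf1r, a classical Runx1 target that encodes the receptor for M-CSF, stood at 47.5, 25.6 and 49.2 CPM in WT and at 1.55, 10.98 and 0 CPM in Cbfb-cKO CD103+CD11b- samples. All 3 Cbfb-cKO samples of Csf1r were below all WT samples, with a log2 value of -3.18 ± 0.69 and an adjusted p of 0.0608 (edgeR). In the same comparison the 8 CD11b+ DC markers had 7 values below 0 and 4 called lower (median -1.83), with sums of 406 to 672 CPM in WT and 91.1 to 156 CPM in Cbfb-cKO samples, and the 6 plasmacytoid DC markers had 6 values below 0. Macrophage markers had 6 of 8 values above 0 (median 0.62). The part of these cells in the Csf1r values was not tested. The Csf1r sample at 0 had a floor of 1.13 CPM (3 counts), which covers counting error only.

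Between the subsets of WT mice 11 of the 55 pathway genes were called higher in CD103-CD11b+ DCs and 4 lower, which is 27.3%, against 18.8% of all tested genes. Those higher included Carm1 (log2 0.48), Cebpa (0.95), Cebpb (1.80), Gata2 (3.75), Ldb1 (0.39), Id1 (3.32), Id3 (3.14), Tcf3 (0.47) and Csf1r (2.75), and those lower Kat6b (-0.42), Myb (-1.74), Cd8a (-2.89) and Itgae (-2.01). Of these, Cd8a, which encodes a chain of the CD8 co-receptor, and Itgae were called in 12 of 12 cases with 1 sample left out. Itgae encodes CD103, by which these subsets were sorted apart. Its calls between subsets, in WT and in Cbfb-cKO mice, were thus fixed by the sort, though it is counted in the shares given here. The call of Csf1r was lost without WT CD103+CD11b- replicate 2, and those of Gata2, Kat6b and Myb without either replicate 1 or replicate 2 of that group. The calls of Cebpa and Id3 were lost in 5 of 12 cases, those of Carm1, Cebpb and Ldb1 in 6, and those of Id1 and Tcf3 in 9. The value of Id1 then ran from 2.78 to 5.69 and that of Id3 from 2.58 to 4.94. In Cbfb-cKO mice 4 were called higher (Cebpa 1.01, Cebpb 2.35, Lmo2 0.83 and Csf1r 5.56) and 3 lower (Tbl1x -0.39, Cd8a -3.16 and Itgae -3.77), which is 12.7%, against 16.1% of all tested genes. With the replicate number as a block 14 of 55 were called (25.5%), against 21.5% of all tested genes. Without the block the calls of Csf1r, Cd8a and Itgae were kept in 12 of 12 cases, those of Cebpa, Cebpb and Lmo2 were lost in 2 and that of Tbl1x in 5. The value of Csf1r then ran from 5.10 to 7.75. Gata2 and Id3 are also expressed by endothelium, and Gata2 stood at 24.5, 73.0 and 82.9 CPM in the WT CD103-CD11b+ samples, where the stroma and endothelium markers summed to 860.1 to 2156 CPM. Markers of macrophages, which express Csf1r and Cebpb, had 8 of 8 values above 0 in both subset comparisons, as given above. The CD45+CD64- gate should leave out endothelium and macrophages, and the part of their RNA in these genes was not tested. Gata1, Csf2, Elane and Il3 had too few counts to be tested.

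**Figure D5:**
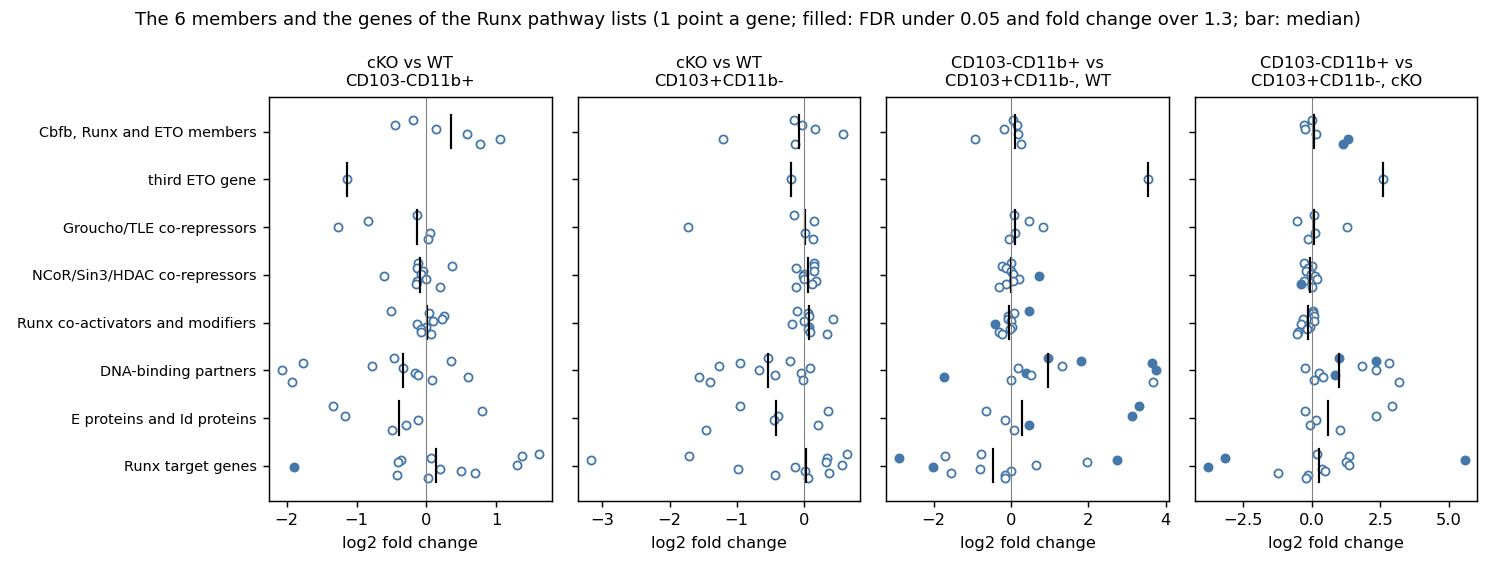
Log2 fold change (horizontal axis) of the 6 genes and of 55 other genes of the Runx pathway, by list (rows), in the genotype comparison of each subset and the subset comparison of each genotype. Each point is a gene, filled where called, and each bar a list's median; Itgae (-1.89) is the filled point in CD103-CD11b+ DCs with genotype, and none is filled in CD103+CD11b- DCs with genotype.

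The patterns over the 12 samples differed between the members. Pearson's r of log2 CPM, given as a description because the samples share groups and depth, was 0.60 between Runx2 and Runx3, 0.58 between Runx1 and Runx3 and -0.06 between Runx1 and Runx2. Cbfb had an r with Runx1 of 0.52 and with Runx3 of 0.02. Of the 15 pairs of members the 2 farthest from 0 were negative, Runx1 with Cbfa2t2 (-0.77) and Cbfb with Cbfa2t2 (-0.68), and the remaining 8 pairs lay between -0.41 and 0.42. Among 12644 genes with a mean over 5 CPM, those most like Runx3 were Syk (r = 0.96), a kinase of innate receptors, Pdxk (0.95) and Elmo1 (0.95), which acts in the uptake of dead cells. Syk had means of 383, 566, 371 and 966 CPM in the 4 groups, in the order WT CD103+CD11b-, WT CD103-CD11b+, Cbfb-cKO CD103+CD11b- and Cbfb-cKO CD103-CD11b+. Those most like Runx2 were Fyb (0.96), an adaptor of immune receptors, Gm16315 (0.95) and Nxpe1-ps (0.93), and Fyb had means of 177, 116, 90.8 and 244 CPM in that order. Those most like Runx1 were 1700058P15Rik (0.95), Tpi1 (0.93), an enzyme of glycolysis, and Med21 (0.92).

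Cbfb was most like Cox7b (0.97), Eif3k (0.97) and Atp5c1 (0.97), which encode parts of the respiratory chain, of the translation machinery and of ATP synthase. Cbfa2t2 was most like Gm26823 (0.93), Pomk (0.91) and Gm43682 (0.91). Cbfa2t3 was most like Hdac10 (0.89), a deacetylase, Necap2 (0.86) and Rnf44 (0.86).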

How the data were processed

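RNA was measured in 12 samples of sorted small-intestinal DCs, each group of 3 samples sorted from 3 different mice per the methods of the study. The authors prepared libraries by RamDA-seq, trimmed the reads with Trim Galore, mapped them with STAR 2.7 to mm10 (GRCm38), removed reads of low mapping quality and duplicates, counted with htseq-count without strand, and deposited raw counts per gene. Between 59.7% and 66.1% of counted reads fell on no gene, and these and other summary lines were left out. Symbols and exon lengths came from GENCODE M21 (99.8% of identifiers matched), start windows from RefSeq.

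A gene was tested if any sample had 5 or more counts of it, with edgeR 4.0.16 (TMM, quasi-likelihood, group means of all 12 samples, R 4.3.3), with Benjamini-Hochberg adjustment; a call needed an adjusted p under 0.05 and a fold change over 1.3, and genes without an adjusted p in DESeq2 were not called. Alternatives were DESeq2 1.42.0, edgeR's likelihood ratio test, other filters and scaling, a replicate block, only the 6 samples compared, and each sample left out. The code was tested on simulated counts. Members and lists were chosen with earlier results of these data known. Named were all 6 members, pathway genes called in a comparison (at most the 4 with the smallest p per list and comparison), Runx1t1, and the 3 genes most like each member by Pearson's r of log2 CPM (prior count 2). Same-numbered samples of both subsets deviated together in Cbfb-cKO mice (r = 0.11, 0.32 and 0.35) and not throughout in WT mice (0.36, -0.08 and 0.35), so only the former were taken as paired. For Cbfb-cKO replicate 1 this is weak, since its r with unequal numbers was 0.082, 0.045, -0.11 and -0.15. The main values, shares and figures come from the fit without a block. Between the subsets of Cbfb-cKO mice Runx2 and Runx3 were called with the block as without. Of the pathway genes to be named, 1 is not reported here.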

Additional observations from a re-analysis of the deposited data

Results flagged for a closer look

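Gm16224, on the other strand within Runx3, stood out because its difference with genotype was not the same in both subsets by a test of that contrast itself. The contrast was 2.45 on the log2 scale, from 1.48 in CD103-CD11b+ DCs (called) to -0.97 in CD103+CD11b- DCs (not called), with an adjusted p of 0.0422 in edgeR. The call is close to the threshold: with 1 sample left out, that of the contrast was lost in 10 of 12 cases (adjusted p up to 0.108, edgeR) and that of the 1.48 in 8 of 12. All 3 Cbfb-cKO samples were above WT in the former and all 3 below in the latter. Runx3 itself had values of 0.77 and -0.13. From which strand the reads of Gm16224 came was not tested.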

How the results depend on the processing

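Depth limits Cbfa2t2 most (77 to 310 counts). Between the subsets of Cbfb-cKO mice Runx2 and Runx3 were both called under every alternative run but an adjusted p under 0.01, which left 1 (Runx3). In CD103-CD11b+ DCs with genotype 1 member (Runx3) was called with 5 or more counts required in every sample, and 2 by DESeq2 and by the likelihood ratio test. In CD103+CD11b- DCs 1 (Runx2) was called by each of these tests, and leaving out 1 sample gave 0 to 1. For the difference of the genotype effects 1 (Runx2) was called with 5 or more counts in every sample, with no filter, by DESeq2, by the likelihood ratio test and with the replicate block (2.26, adjusted p = 0.0352, edgeR), and leaving out 1 sample gave 0 to 1. Between WT subsets 1 (Runx2) was called with edgeR's own filter, with no filter, by DESeq2 and by the likelihood ratio test, and leaving out 1 sample gave 0 to 1. The block changed no other count of members. Values that changed sign were all uncalled. Cbfa2t3 in CD103+CD11b- DCs with genotype was 0.021 with DESeq2's scaling and 0.022 in DESeq2, and Cbfa2t2 between Cbfb-cKO subsets was -0.019 with edgeR's own filter, -0.00355 with the replicate block and -0.042 with only the 6 samples compared. With 1 sample left out, genotype values ran from -0.10 to 0.28 for Cbfb in CD103-CD11b+ DCs, and from -0.23 to 0.023 for Runx3 and -0.16 to 0.12 for Cbfa2t3 in CD103+CD11b- DCs. The difference of the effects ran from -0.28 to 0.12 for Cbfb, -0.28 to 0.16 for Runx1, -0.14 to 0.11 for Cbfa2t2 and -0.061 to 0.35 for Gm26626. Between WT subsets values ran from -0.10 to 0.10 for Cbfa2t2, -0.056 to 0.28 for Cbfa2t3 and -0.14 to 0.23 for Gm26626, and between Cbfb-cKO subsets from -0.13 to 0.17 for Cbfa2t2 and -0.10 to 0.29 for Runx1. Over all genes the genotype calls went from 331 and 210 to 1136 and 655 in DESeq2, those of the difference from 134 to 502, and with only the 6 samples compared the 331 became 27. At an adjusted p under 0.01 the difference kept 19, and the subset calls were 1115 of 3860 in WT and 1636 of 3307 in Cbfb-cKO mice. With 1 sample left out, all-gene calls ran from 121 (without Cbfb-cKO CD103-CD11b+ replicate 2) to 517 (without WT CD103-CD11b+ replicate 1) and from 46 (without WT CD103+CD11b- replicate 1) to 241 with genotype, and from 29 (without Cbfb-cKO CD103+CD11b- replicate 1) to 210 for the difference. Between subsets they ran from 1410 (without WT CD103+CD11b- replicate 2) to 4373 in WT and from 2124 (without Cbfb-cKO CD103+CD11b- replicate 1) to 3638 in Cbfb-cKO mice. The causes were not tested.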
